A study of Mus musculus with 7 samples.

Results

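Immunoglobulin heavy chain variable (Ighv) segments were followed in poly(A) RNA-seq libraries of mouse bone marrow. The segments were the rows of the gene count table whose Ensembl ID carries a symbol beginning with Ighv and the GENCODE M21 type IG_V_gene. A row also needed at least 10 counts summed over the 7 libraries. Of 113 such genes 104 met the minimum, among 49315 genes in the table. The members were thus chosen by their summed counts, so their presence in the marrow is a description and not a result. Just inside the minimum were Ighv6-4 and Ighv6-5 with 10 counts each and Ighv8-9 with 12 counts. Just outside it were Ighv2-7 with 3 counts and Ighv16-1 with 2, then Ighv5-12-4, Ighv6-7, Ighv1-16, Ighv8-13, Ighv1-62-1 and Ighv1-24 with 1 count each. Ighv7-2 had 0 of the 171756 Ighv counts, which allows a share of up to 0.00175%.

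The mice had been fed chow and had undergone hindlimb ischemia, an operation that cuts off blood flow to a hind limb. Strain, sex, age, the ends of the deletion and any Cre line were not given in the sources used here. The 3 control libraries carried the genotype miR-181a2b2flox/flox and are called flox, although their titles say WT. The 4 other libraries carried miR-181a2b2-/- and are called KO. The deleted genes encode copies of the microRNAs miR-181a and miR-181b. Mir181a-2 and Mir181b-2 had 0 counts in all 7 libraries, so these poly(A) libraries do not check the genotype labels. The labels do not say that the libraries came from separate mice, so each p-value measures only the spread between these samples. The labels name bone marrow as the source, but their extraction text names white adipose tissue. The summed level of 7 granulocyte genes of the marrow was 36082 ± 7534 CPM (counts scaled to library size; SD, n = 3) in flox and 27411 ± 2842 (SD, n = 4) in KO. The summed level of 5 adipose genes was 51.2 ± 23.2 CPM in flox and 41.6 ± 11.9 in KO.

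A heavy chain gene is assembled in early B cell precursors, when the RAG recombinase joins 1 V segment to a D and a J segment. Each B cell then transcribes its own joined V segment with a constant region, and a plasma cell secretes the resulting antibody in large amounts. Segments are numbered by family and by order along the locus, and members of a family resemble each other in sequence. The Ighv1 family (J558) is the largest and lies far from the J segments, whereas Ighv5 and Ighv2 (Q52) lie near them. Unrearranged V segments can also be transcribed, and counts per gene cannot tell such germline RNA from rearranged RNA. In whole marrow, fewer cells of a type and less RNA per cell cannot be told apart.

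The segment that took the largest share of Ighv counts differed between most libraries, and the ends of the V exons of these leading segments are shown to let their differences be seen. Each sequence below is the last 300 bases of the coding V exon, 5′ to 3′ on the transcribed strand, from GENCODE M21 transcripts on GRCm38. Capitals mark bases that differ from the most similar other annotated segment, and bases missing relative to it are not marked. Ighv6-3 led in flox 1, Ighv5-4 in flox 2 and KO 3, Ighv1-64 in flox 3, Ighv1-26 in KO 1, Ighv1-53 in KO 2 and Ighv1-9 in KO 4. Ighv1-18 is shown because it ranked next to Ighv5-4 in flox 2 and is the most similar segment to Ighv1-26.
Ighv6-3: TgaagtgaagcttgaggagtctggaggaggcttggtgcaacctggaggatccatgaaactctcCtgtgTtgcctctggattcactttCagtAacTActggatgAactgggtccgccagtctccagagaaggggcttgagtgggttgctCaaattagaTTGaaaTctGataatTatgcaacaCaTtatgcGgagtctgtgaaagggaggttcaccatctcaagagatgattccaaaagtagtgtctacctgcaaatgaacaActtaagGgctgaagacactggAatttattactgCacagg
Ighv5-4: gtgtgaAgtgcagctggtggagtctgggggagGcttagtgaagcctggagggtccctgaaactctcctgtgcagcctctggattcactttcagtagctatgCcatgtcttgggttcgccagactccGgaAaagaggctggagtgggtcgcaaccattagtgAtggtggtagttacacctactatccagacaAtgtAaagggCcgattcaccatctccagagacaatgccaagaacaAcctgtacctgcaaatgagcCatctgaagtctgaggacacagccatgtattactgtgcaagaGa
Ighv1-64: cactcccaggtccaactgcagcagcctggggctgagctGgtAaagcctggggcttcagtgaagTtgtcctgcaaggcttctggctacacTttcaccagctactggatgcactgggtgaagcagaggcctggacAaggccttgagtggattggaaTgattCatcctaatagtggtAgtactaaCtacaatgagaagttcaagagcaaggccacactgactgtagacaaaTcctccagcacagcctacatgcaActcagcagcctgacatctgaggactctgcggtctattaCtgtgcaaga
Ighv1-26: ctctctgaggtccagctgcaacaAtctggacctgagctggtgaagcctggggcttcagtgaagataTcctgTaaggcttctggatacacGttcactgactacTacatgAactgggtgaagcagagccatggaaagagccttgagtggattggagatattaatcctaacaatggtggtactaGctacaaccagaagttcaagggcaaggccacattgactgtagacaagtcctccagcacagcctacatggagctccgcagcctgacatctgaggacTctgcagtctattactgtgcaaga
Ighv1-53: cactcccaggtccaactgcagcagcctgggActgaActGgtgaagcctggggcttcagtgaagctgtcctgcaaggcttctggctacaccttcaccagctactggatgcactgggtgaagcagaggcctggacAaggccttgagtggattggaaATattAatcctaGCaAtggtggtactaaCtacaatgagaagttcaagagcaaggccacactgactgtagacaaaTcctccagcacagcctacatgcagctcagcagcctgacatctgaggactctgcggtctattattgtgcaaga
Ighv1-9: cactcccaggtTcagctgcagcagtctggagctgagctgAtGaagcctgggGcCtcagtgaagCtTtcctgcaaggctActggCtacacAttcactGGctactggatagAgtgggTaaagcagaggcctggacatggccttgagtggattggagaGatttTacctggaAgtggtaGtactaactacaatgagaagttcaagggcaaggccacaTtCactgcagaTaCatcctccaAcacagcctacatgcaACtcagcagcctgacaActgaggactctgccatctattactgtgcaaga
Ighv1-18: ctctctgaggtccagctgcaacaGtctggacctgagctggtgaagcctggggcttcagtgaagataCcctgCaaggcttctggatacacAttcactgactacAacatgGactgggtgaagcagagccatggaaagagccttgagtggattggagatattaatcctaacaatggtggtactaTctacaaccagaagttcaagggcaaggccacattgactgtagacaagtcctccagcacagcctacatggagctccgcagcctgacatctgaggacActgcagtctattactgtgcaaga
All lie on the minus strand of chromosome 12. The printed part of Ighv6-3 is chr12:114391712-114392011 and was compared with Ighv6-6 (23 differences). That of Ighv5-4 is chr12:113597446-113597745 and was compared with Ighv5-6 (14 differences). The Ighv1-64 stretch, chr12:115507545-115507844, and the Ighv1-53 stretch, chr12:115158403-115158702, each differed from Ighv1-72 at 12 places. The Ighv1-26 stretch, chr12:114788372-114788671, and the Ighv1-18 stretch, chr12:114682632-114682931, differed from each other at 8 places. The Ighv1-9 stretch, chr12:114583569-114583868, differed from Ighv1-63 at 30 places.

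The sequences also show how alike the segments are. Over these 300-base ends, the median identity was 85.3% for 1355 pairs within a family and 59.0% for 4001 pairs from different families. Ighv5-4 and Ighv5-9-1, both of the Ighv5 family, differed at 20 places. Ighv5-4 and Ighv1-18, from different families, differed at 113. The motif TGTGCAAG, which ends many of the V exons above, was in the last 30 bases of 62 of 104 members and of 59.3% of all 113 Ighv genes. Its reverse complement CTTGCACA was in 0 members. For 28 members another segment was at least 97% identical, and these held 22.0% of all Ighv counts. Ighv1-62-2 and Ighv1-71 were identical over the stretch compared, so their 294 and 386 counts cannot be assigned with certainty. Ighv11-1 and Ighv11-2 were 98.7% identical. The sources used here do not say how reads with several matches were handled, so counts of near-identical segments are uncertain.

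The members held 33424, 36274 and 17063 counts in flox 1, 2 and 3, and 23971, 20406, 17770 and 22837 in KO 1 to 4. Library totals ran from 43110251 to 51688514 counts. After TMM scaling the summed Ighv level was 666, 743 and 365 CPM in flox and 505, 435, 380 and 520 CPM in KO. The group values were 591 ± 200 CPM (SD, n = 3) and 460 ± 65.0 CPM (SD, n = 4), and the groups overlapped. Flox 1 and flox 2 were the highest and flox 3 the lowest of all. Without each library's highest segment the sums were 623, 322 and 345 CPM in flox and 460, 358, 331 and 482 CPM in KO. Flox 2 was then the lowest, because 421 of its 743 CPM came from Ighv5-4.

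Flox 1 and flox 2 stood apart from the other libraries. In flox 1 the constant region Igha, which makes IgA, held 81.9% of heavy constant region counts and Ighm, which makes IgM, held 12.8%. Over the other 6 libraries Ighm held 54.0% to 77.2% and Igha 11.8% to 36.0%. The summed level of 15 B cell precursor genes was 93.6 CPM in flox 1, against 516 and 832 CPM in flox 2 and 3 and 886 to 1123 CPM in KO. In flox 2 a single segment, Ighv5-4, held 56.7% of Ighv counts (20561 of 36274, 95% Wilson interval 56.2% to 57.2%). Such intervals cover counting error only, and the widest reached 0.524 percentage points on either side of a share. Values without either library are given below for several of the results that leaving it out moves, not for all.

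The share of the leading segment ranged from 5.30% to 56.7%. In flox 1 Ighv6-3 held 6.46% of Ighv counts, Ighv1-26 5.21% and Ighv1-64 4.73%. In flox 2 Ighv5-4 was followed by Ighv1-18 with 5.60% and Ighv5-9-1 with 2.66%. Flox 3 had an even spread at the top, with Ighv1-64 at 5.30%, Ighv1-26 at 5.17% and Ighv9-3 at 4.66%. In KO 1 Ighv1-26 held 8.90%, Ighv1-53 7.08% and Ighv11-2 3.94%. Ighv11-2 is a segment known from B-1a cells, whose antibodies bind phosphatidylcholine. In KO 2 Ighv1-53 held 17.7% and Ighv3-6 8.07%. KO 3 was led by Ighv5-4 with 13.0%, followed by Ighv1-26 with 3.71% and Ighv1-42 with 3.66%. KO 4 had Ighv1-9 at 7.26%, Ighv1-53 at 6.99% and Ighv14-4 at 5.15%. Ighv1-26 was thus among the leading 3 segments in 5 libraries of both genotypes, Ighv1-53 in 3 KO libraries, and no other segment in more than 2 libraries.

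**Figure D1:**
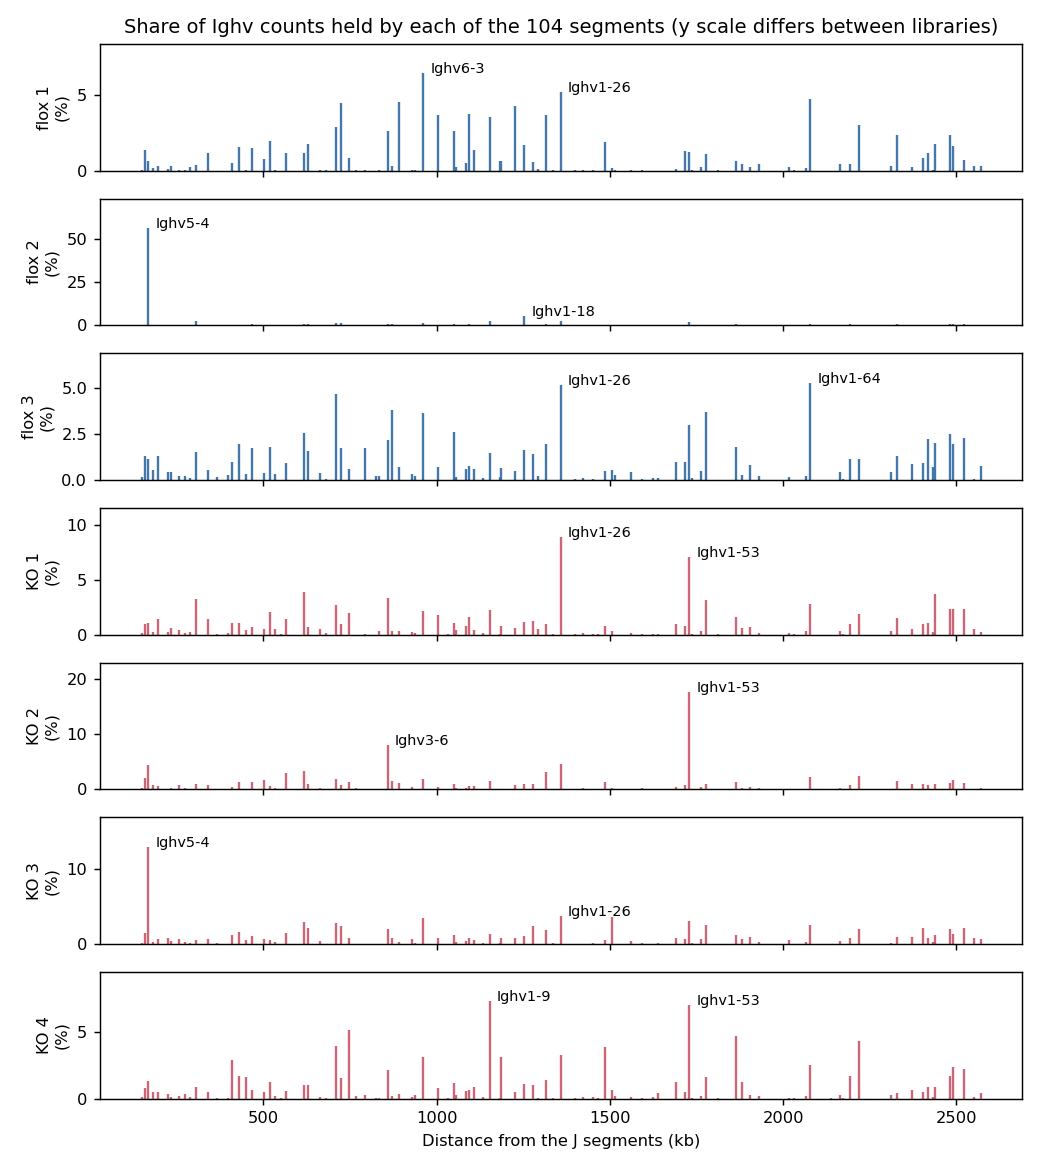
Share of Ighv counts (y axis, percent, with a scale of its own for each library) of each of the 104 segments against distance from the J segments (x axis, kb), flox in blue and KO in red. The leading 2 segments of each library are named, and flox 2 is dominated by Ighv5-4 at 56.7%.

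The number of segments in use was summarised as the exponential of the Shannon entropy of the shares, which gives the number of equally used segments with the same evenness. It was 45.7, 10.4 and 58.5 in flox and 53.0, 40.4, 52.7 and 48.6 in KO. Flox held both the lowest and the highest value, and the groups overlapped at 38.2 ± 24.9 (SD, n = 3) and 48.7 ± 5.86 (SD, n = 4). Without each library's highest segment the values were 46.0, 45.6 and 59.0 in flox and 56.2, 50.8, 61.1 and 49.8 in KO. The number of segments needed to hold 50% of Ighv counts was 12, 1 and 17 in flox and 14, 10, 15 and 12 in KO. Detection itself was even: 97 of 104 members had a count in all 7 libraries, and 87 to 91 members had at least 10 counts in a given library.

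Light chain V segments of the same libraries were summed to 761, 948 and 452 CPM in flox and 674, 657, 453 and 768 CPM in KO. The leading light chain segments in flox 1 to 3 were Iglv1 (11.3%), Igkv1-117 (21.0%) and Igkv1-110 (9.25%), and those in KO 1 to 4 were Igkv3-4 (12%), Igkv3-4 (25.1%), Iglv1 (13.4%) and Igkv3-4 (15.3%).

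Levels of different segments were compared as CPM per kilobase of exon, with exon lengths from 347 to 480 bases. The median over the 104 members was 6.45 CPM per kb and the range 0.0842 to 172. Ighv5-4 ranked highest at 172 CPM per kb, and without flox 2 its mean was 35.3 CPM per kb and its rank 8. Ighv1-53 followed at 78.4 CPM per kb. In all, 13 members had a mean above 10 CPM and 33 a mean under 1 CPM.

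There were 14 segments that were raised at least 3-fold in 1 library over every other library, counting those with at least 10 counts there. These were picked after their values were seen and carry no test. Flox 1 had 5 of them. Ighv1-15 was at 28.4 CPM there and at most 3.48 CPM elsewhere, and Ighv3-8 was at 30.5 CPM against at most 5.03. Ighv1-11, Ighv7-3 and Ighv10-3 completed the flox 1 set with 4.22, 29.8 and 25.2 CPM. Flox 2 had Ighv5-4, Ighv1-18 and Ighv1-62-3, and flox 3 had Ighv7-4 at 6.35 CPM. In KO 4 Ighv2-9 reached 8.54 CPM, Ighv1-12 16.0 CPM and Ighv8-5 2.39 CPM. KO 3 had Ighv1-42 at 13.9 CPM against at most 3.41 elsewhere, KO 1 had Ighv1-20 at 2.82 CPM, and KO 2 had 0 such segments.

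Family shares were dominated by Ighv1, the largest family with 50 members. It held 48.1%, 24.0% and 50.8% of Ighv counts in flox and 55.0%, 51.0%, 46.7% and 52.5% in KO. The low value belonged to flox 2. With Ighv5-4 left out of every library, Ighv1 held 48.4%, 55.3% and 51.4% in flox and 55.6%, 53.4%, 53.7% and 53.2% in KO. Ighv5, with 9 members near the J segments, held 3.87%, 60.9% and 8.02% in flox and 9.01%, 8.71%, 18.1% and 8.02% in KO. Without Ighv5-4 its shares were 3.26%, 9.71% and 6.94% in flox and 7.99%, 4.42%, 5.84% and 6.76% in KO, so the flox range enclosed the KO range.

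**Figure D2:**
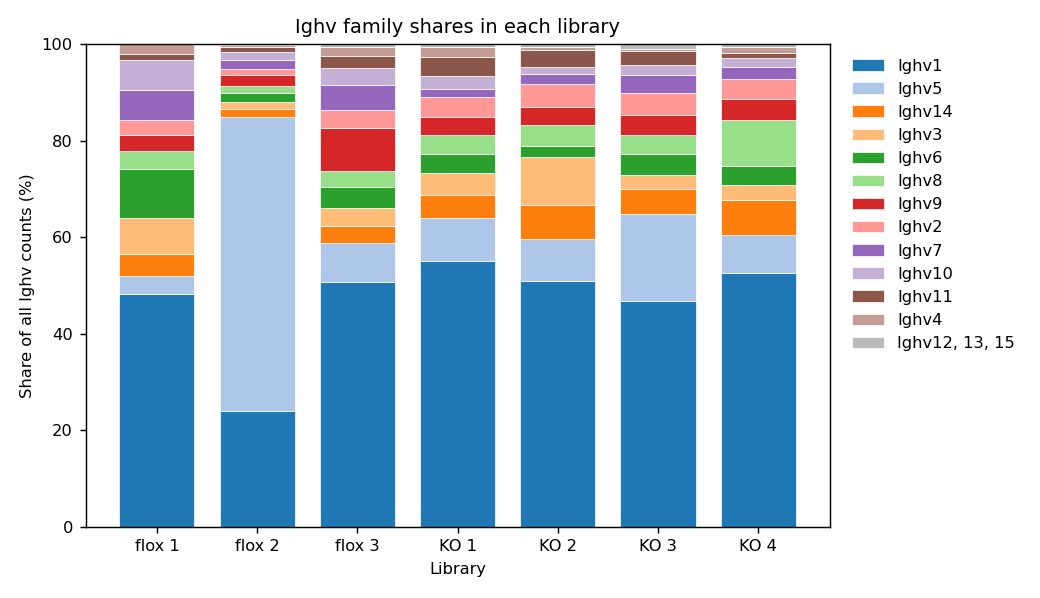
Stacked bars of the share of Ighv counts (y axis, percent) held by each V family in each library (x axis). Ighv5 fills 60.9% of flox 2 and 18.1% of KO 3, and outside flox 2 Ighv1 holds 46.7% to 55.0%.

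For 2 of 15 families the groups did not overlap in share. Among all 17920 tested genes, the groups did not overlap in CPM for 13.6%. Ighv2 held 3.23%, 1.28% and 3.71% in flox and 4.11%, 4.67%, 4.69% and 4.17% in KO. All KO libraries lay above all flox libraries, at 4.41 ± 0.313% against 2.74 ± 1.29% (SD, n = 4 and 3). Ighv14 (SM7) held 4.57%, 1.73% and 3.50% in flox and 4.77%, 7.0%, 5.26% and 7.23% in KO, also with all KO libraries higher. The smallest KO value of Ighv14 and the largest flox value were 4.77% and 4.57%. The flox 2 shares were lowered by Ighv5-4. In CPM, which the other segments do not dilute, both families overlapped between the groups.

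With Ighv5-4 left out of every library, a choice made after its values were seen, 5 of 15 families did not overlap in share. The share for all tested genes, in CPM, was the 13.6% given above. Ighv2 and Ighv14 kept that state, and Ighv8, Ighv7 and Ighv10 joined them. Ighv8 was then at 3.82%, 3.63% and 3.33% in flox and 3.84%, 4.56%, 4.44% and 9.74% in KO. Its groups were barely apart, with nearest values of 3.82% and 3.84%. Ighv7 (S107), whose Ighv7-1 is known from antibodies to phosphorylcholine, was at 6.07%, 4.42% and 5.32% in flox and 1.75%, 2.27%, 4.16% and 2.54% in KO. Ighv10 was at 6.43%, 3.42% and 3.45% in flox and 2.76%, 1.59%, 2.37% and 1.89% in KO. In CPM only Ighv7 separated the groups, with 40.2, 14.2 and 19.2 in flox and 8.73, 9.45, 13.7 and 13.0 in KO. The gap there was small, since the lowest flox value was 14.2 and the highest KO value 13.7 CPM. For flox 3 the separation also rested on Ighv7-4, a segment raised in 1 library. Ighv7-4 gave 6.35 of the 19.2 CPM of flox 3 and was at most 1.41 CPM elsewhere. Ighv7-3 gave 29.8 of the 40.2 CPM of flox 1. Ighv7-1 and Ighv7-3 were at 6.45 and 6.39 CPM in flox 3, against 4.30 and 9.28 CPM in KO 3.

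The other families overlapped by share. Ighv3 held 7.35%, 1.40% and 3.71% in flox and 4.55%, 9.85%, 2.86% and 3.05% in KO. Its KO 2 value came largely from Ighv3-6, at 8.07% of the counts of that library. Ighv6 (J606) held 10.2% in flox 1 and 1.78% to 4.37% in the other libraries. Ighv9 held 8.93% in flox 3 and 2.23% to 4.30% elsewhere. Ighv11, the family of Ighv11-2, held 1.15%, 1.07% and 2.57% in flox and 3.98%, 3.43%, 2.92% and 1.07% in KO. Ighv12-3, the other segment known from B-1a cells, was at 0.199, 0.307 and 0.812 CPM in flox and 0.654, 0.725, 0.577 and 1.64 CPM in KO, and overlapped.

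The comparison of KO with flox asked which genes of the marrow differ in mice lacking miR-181a2b2. Of the 104 members 94 passed the filter on low counts and were tested in the edgeR fit over all genes. Ighv11-1, Ighv7-4, Ighv6-4, Ighv6-5, Ighv8-2, Ighv1-37, Ighv1-56, Ighv1-62-3, Ighv8-9 and Ighv8-11 did not pass. The filter asks for a minimum count in several libraries, and of the 395 counts of Ighv7-4, 297 were in flox 3. None of the 94 reached a Benjamini-Hochberg adjusted p of 0.05 in edgeR's quasi-likelihood test, where 0.145% of all tested genes (26 of 17920) did, with 0.134% of the tested genes higher and 0.0112% lower in KO. The lowest adjusted p of a member was 0.220. At an unadjusted p under 0.05 there were 10 members (10.6%), against 14.1% of all tested genes. Of these 6 were higher and 4 lower, against 5.89% and 8.17% of all tested genes. DESeq2 called 2 of the 94 (2.13%), Ighv2-5 and Ighv7-1, against 2.02% of all tested genes (362 of 17920). In the edgeR fit 53 members had higher and 41 lower fitted values in KO, and the median over the 94 was 0.16 on the log2 scale. All tested genes had a median of -0.01, and 48.1% of them were higher. Without flox 1, 72 of 95 tested members were higher, with a median of 0.37 against -0.0012 for all tested genes. Without flox 2, 51 of 95 were higher, with a median of 0.10 against 0.0048. No member was called in either, where 14 of 18296 and 4 of 18325 tested genes were called.

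Differences below are KO over flox on the log2 scale with their standard error (SE), and adjusted p are those of edgeR unless DESeq2 is named. The members' differences were wide and poorly determined. They ran from -2.81 to 2.21, with 11 members under -1 and 15 above 1. The median standard error was 0.60 for the members and 0.15 for all tested genes. Within flox the median coefficient of variation was 63.8% over tested members, and within KO it was 52.6%. For 6776 other tested genes with a mean of 0.416 to 11.1 CPM, the 10th to 90th percentile of the tested members, it was 18.8% and 17.8%.

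**Figure D3:**
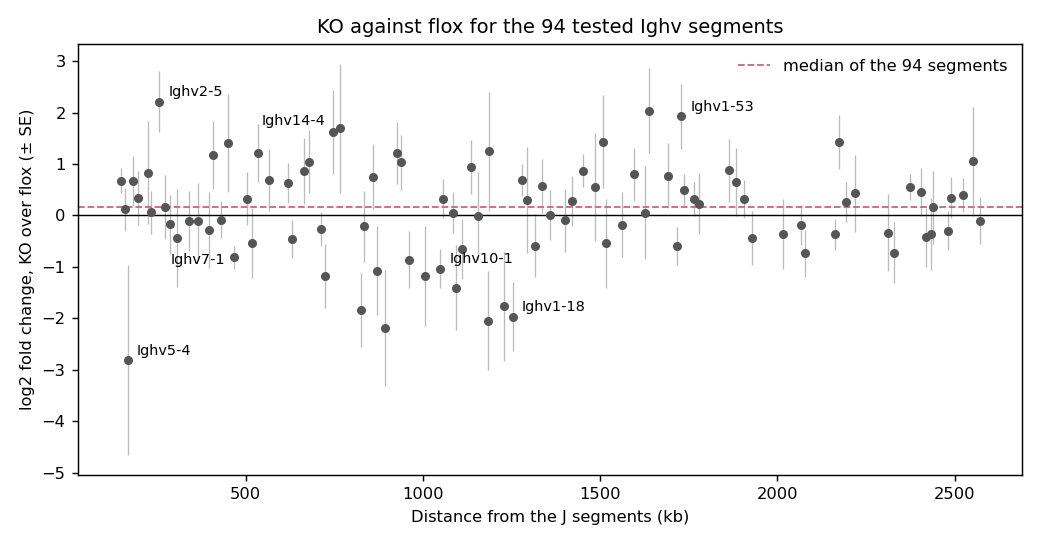
Difference of KO from flox on the log2 scale with its standard error (y axis) for the 94 tested segments against distance from the J segments (x axis, kb). Ighv2-5 is highest at 2.21 and Ighv5-4 lowest at -2.81, and the dashed line marks the median of 0.16.

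Ighv5-4 (chr12:113597446-113597977) had the lowest fitted difference of KO from flox among the 94 and did not pass the test. It was at 4.26, 421 and 4.25 CPM in flox and 5.61, 19.5, 49.3 and 7.03 CPM in KO. Flox 2 exceeded every other library, while both other flox libraries lay below all KO libraries. The fitted difference was -2.81 (SE 1.85, adjusted p = 0.577). Without flox 2 it was 2.27 (adjusted p = 0.602), so 1 library sets its direction.

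Ighv1-53 (chr12:115158403-115158835) was at 8.15, 12.5 and 11.0 CPM in flox and 35.8, 77.0, 11.8 and 36.3 CPM in KO. KO 1, KO 2 and KO 4 lay above all flox libraries, and KO 3 within their range. The fitted difference was 1.93 (SE 0.63, adjusted p = 0.285), with a 95% interval from 0.38 to 3.48.

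Ighv1-26 (chr12:114788372-114788805), a leader in both genotypes, was at 34.7, 18.4 and 18.9 CPM in flox and 45.0, 20.4, 14.1 and 16.8 CPM in KO. The group ranges overlapped, and the fitted difference was 0.00. Its close relative Ighv1-18 (chr12:114682632-114683065) was at 11.2, 41.6 and 6.0 CPM in flox and 6.03, 3.99, 4.15 and 5.90 CPM in KO. Flox 2 was the highest, and KO 1 lay just above flox 3. The difference was -1.97 (SE 0.67, adjusted p = 0.295), and without flox 2 it was -0.76 (adjusted p = 0.352).

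**Figure D4:**
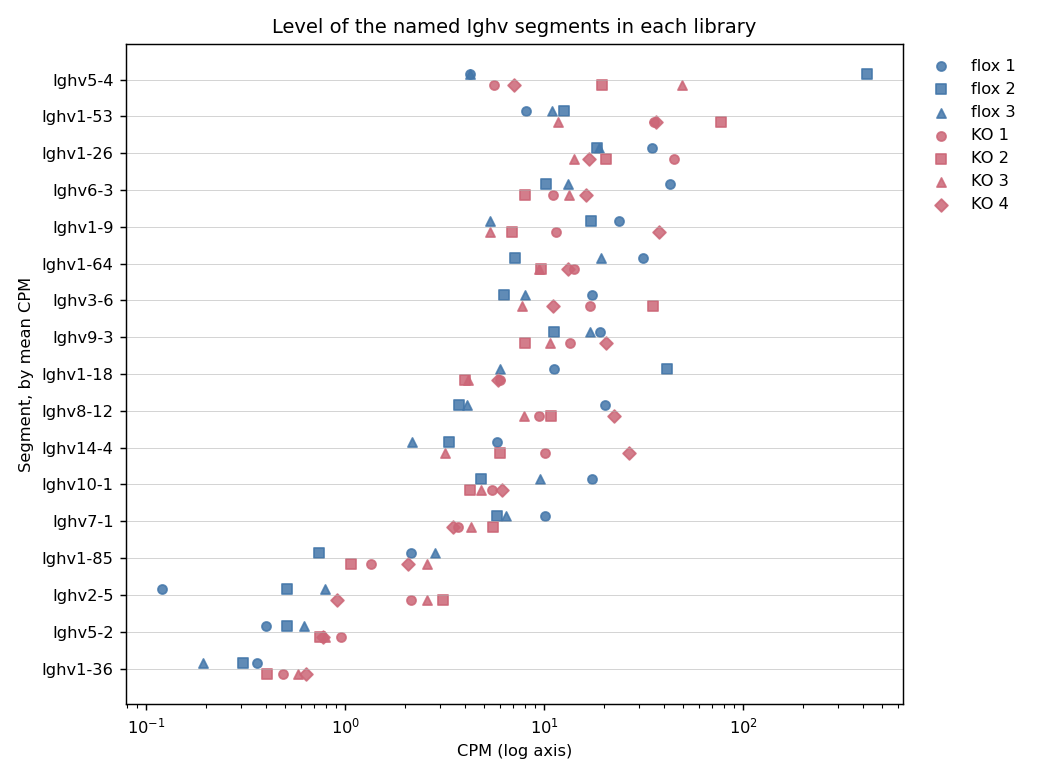
Level in CPM (x axis, log scale) of the 17 named and tested segments (y axis, ordered by mean CPM), 1 symbol per library, flox in blue and KO in red. Ighv5-4 reaches 421 CPM in flox 2, and Ighv1-53 is at 35.8 to 77.0 CPM in 3 of 4 KO libraries.

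For the other abundant segments, the library with the highest level differed from segment to segment. Ighv6-3 (chr12:114391712-114392169) was at 43.0 CPM in flox 1 and between 8.04 and 16.3 CPM in the other 6 libraries. Ighv1-64 (chr12:115507545-115508031) was at 31.5, 7.15 and 19.3 CPM in flox and 14.1, 9.62, 9.43 and 13.2 CPM in KO. Ighv1-9 (chr12:114583569-114584002) was at 23.8, 17.2 and 5.36 CPM in flox and 11.5, 6.91, 5.32 and 37.7 CPM in KO. The groups overlapped for each of these. Ighv3-6 (chr12:114288152-114288582) was highest in KO 2 at 35.1 CPM, with 6.29 to 17.3 CPM elsewhere. Ighv8-12 (chr12:115647945-115648387) was at 20.3, 3.73 and 4.10 CPM in flox and 9.40, 10.8, 7.89 and 22.5 CPM in KO. Ighv9-3 (chr12:114140692-114141122) varied least in this set, from 11.2 to 19.2 CPM in flox and from 8.0 to 20.4 CPM in KO. Ighv14-4 (chr12:114176438-114176867) was at 5.78, 3.34 and 2.16 CPM in flox and 10.1, 6.01, 3.16 and 26.8 CPM in KO, a difference of 1.61 (SE 0.82, adjusted p = 0.442). Without KO 4 it was 0.77 (adjusted p = 0.635).

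The groups did not overlap for 5 of the 94 tested members (5.32%), against the 13.6% of all tested genes given above. Without flox 1 it was 13 of 95 (13.7%, against 21.1% of all tested genes), and without flox 2 it was 11 of 95 (11.6%, against 20.7%). All KO libraries were above all flox libraries for 4 members (4.26%, against 6.22% of all tested genes), and all were below for 1 member (1.06%, against 7.41%). Ighv2-5 (chr12:113685482-113686045), of the Q52 family, was at 0.120, 0.512 and 0.791 CPM in flox and 2.15, 3.11, 2.57 and 0.910 CPM in KO. The difference was 2.21 (SE 0.59, adjusted p = 0.220), and DESeq2 gave 2.22 with an adjusted p of 0.00426. Its counts were 6, 25 and 37 in flox and 102, 146, 120 and 40 in KO, so the KO 4 value lay close to flox 3. Ighv5-2 (chr12:113578504-113578990), also called VH81X, is the member nearest to the J segments and a segment often used by early precursors. It was at 0.398, 0.512 and 0.620 CPM in flox and 0.949, 0.746, 0.791 and 0.774 CPM in KO, a difference of 0.68 (SE 0.25, adjusted p = 0.283). Ighv1-36 (chr12:114879888-114880321) was at 0.359, 0.307 and 0.192 CPM in flox and 0.485, 0.405, 0.577 and 0.637 CPM in KO, a difference of 0.87 (SE 0.32, adjusted p = 0.284). Ighv1-67, named after its values were seen, was at 0.0199, 0.164 and 0.214 CPM in flox and 0.401, 0.427, 0.299 and 0.296 CPM in KO. These 4 segments were at low levels, and the summed level of the B cell precursor genes was also higher in all KO libraries than in all flox libraries, and its part in these values was not tested.

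Ighv7-1 (chr12:113896408-113896946) was the tested member with all KO libraries lower. It was at 10.1, 5.82 and 6.45 CPM in flox and 3.71, 5.50, 4.30 and 3.48 CPM in KO. The nearest values of the groups were 5.82 and 5.50 CPM. The difference was -0.81 (SE 0.23, adjusted p = 0.220), and DESeq2 gave -0.80 with an adjusted p of 0.0360. Ighv10-1 (chr12:114479005-114479451) was at 17.4, 4.82 and 9.53 CPM in flox and 5.48, 4.24, 4.81 and 6.12 CPM in KO, a difference of -1.03 (SE 0.38, adjusted p = 0.297). Without flox 1 the difference was -0.48 (adjusted p = 0.477). Its groups overlapped through flox 2.

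Members span 149 to 2570 kb from the end of Ighj1. Over the 94 tested segments, which share libraries and neighbours, the difference between the groups against distance had a Pearson r of 0.03 and a Spearman rho of -0.01. Split by order into 4 sets of 26 members, from nearest to farthest, 15 of 25, 9 of 22, 17 of 24 and 12 of 23 tested segments were higher in KO. Their medians were 0.17, -0.23, 0.31 and 0.15. The set of members from 679 to 1182 kb held 38.9% of Ighv counts in flox 1 and 11.5% to 29.3% elsewhere. Ighv1-85 (chr12:116000028-116000461), the farthest member, was at 2.13, 0.738 and 2.82 CPM in flox and 1.35, 1.07, 2.59 and 2.07 CPM in KO.

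The order of segments by share was similar in all libraries. Spearman's rho over the 104 segments was 0.789 to 0.858 for the 3 pairs of flox libraries, 0.816 to 0.863 for the 6 pairs of KO libraries, and 0.798 to 0.881 for the 12 pairs across genotypes. The lowest value was that of flox 1 with flox 3. The 3 ranges overlapped, and the points share libraries, depth and similar sequences.

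Constant region counts give the antibody classes of the heavy chain RNA of a library, not of each segment. Ighm held 12.8%, 75.1% and 54.0% of heavy constant region counts in flox and 67.1%, 69.8%, 59.0% and 77.2% in KO. Igha held 81.9%, 11.9% and 36.0% in flox and 22.0%, 14.1%, 25.6% and 11.8% in KO. For both the groups overlapped, and the spread in flox was wider than that in KO. There were 28.2, 22.5 and 18.5 Ighv counts per 100 heavy constant region counts in flox and 19.6, 18.1, 19.7 and 18.8 in KO, with flox 1 highest.

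Antibody genes and V(D)J factors were counted from lists chosen with earlier results known. Of 13 constant region and J chain genes edgeR called 0, with 5 higher and 8 lower in KO and a median of -0.11. Without flox 2 the direction turned, with 7 higher, 6 lower and a median of 0.18. Without flox 1 it was 6 higher and 7 lower with a median of -0.08. Of 21 genes for recombination and V promoter factors 0 were called, with 18 higher and 3 lower and a median of 0.16. The lowest p-values there belonged to Xrcc5 at 0.25 (adjusted p = 0.278) and Xrcc6 at 0.36 (adjusted p = 0.286), which encode the Ku proteins that join broken DNA ends. Pou2f1, an octamer factor of V promoters, was at 0.23 (adjusted p = 0.318). The largest differences of the list were those of Rag2 at 1.39 (adjusted p = 0.334), Rag1 at 1.38 (adjusted p = 0.563) and Dntt at 1.19 (adjusted p = 0.458). All of these are also on the B cell precursor list.

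Marker lists of the cells that carry heavy chain RNA were compared in the same way. All 15 B cell precursor genes had higher fitted values in KO, with 0 called and a median of 1.18 (0.71 without flox 1). Their sum was 481 ± 371 CPM in flox (SD, n = 3) and 1016 ± 116 CPM in KO (SD, n = 4). All 11 mature B cell genes were higher too, with 0 called and a median of 0.87 (0.38 without flox 1). Of 12 plasma cell genes 6 were higher and 6 lower with 0 called and a median of 0.00. Without flox 1 it was 7 higher and 5 lower (median 0.13), and without flox 2 8 higher and 4 lower (median 0.10). The plasma cell sum was 638, 666 and 492 CPM in flox and 622, 561, 470 and 616 CPM in KO. Flox 1 and flox 2 were high and flox 3 and KO 3 low in both the plasma cell sum and the summed Ighv level, and no p was computed for this. Jchain, Xbp1 and Txndc5 made up most of the plasma cell sum and ran the same way, as did Prdm1 and Fkbp11. Sdc1, Irf4, Mzb1 and Slamf7 were instead higher in flox 3 and KO 3 than in flox 1 and flox 2. Irf4 was at 12.2, 32.9, 50.8 and 70.8 CPM in flox 1, flox 2, flox 3 and KO 3. The other listed plasma cell genes were mixed. The part of cell composition in the Ighv values was not tested.

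Markers of other cells were counted too. Of 8 T cell genes 6 were higher and 2 lower, all 7 granulocyte genes were lower with a median of -0.38, and all 6 erythroid genes were higher with a median of 0.37. None of these was called by edgeR. All 7 intestinal epithelium genes were higher in KO, also without flox 1 or without flox 2. EdgeR called 5 of the 7, where 0.145% of all tested genes were called. Without flox 1 it called 3, where 14 of all 18296 tested genes were called. Without flox 2 it called 1, where 4 of all 18325 were. The list's sum was 44.6 ± 1.11 CPM in flox (SD, n = 3) and 89.3 ± 17.1 CPM in KO (SD, n = 4). Of 5 adipose genes 4 were tested, and those 4 were lower with 0 called (2 of 4 without flox 1). The part of these genes in the Ighv values was not tested.

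**Figure D5:**
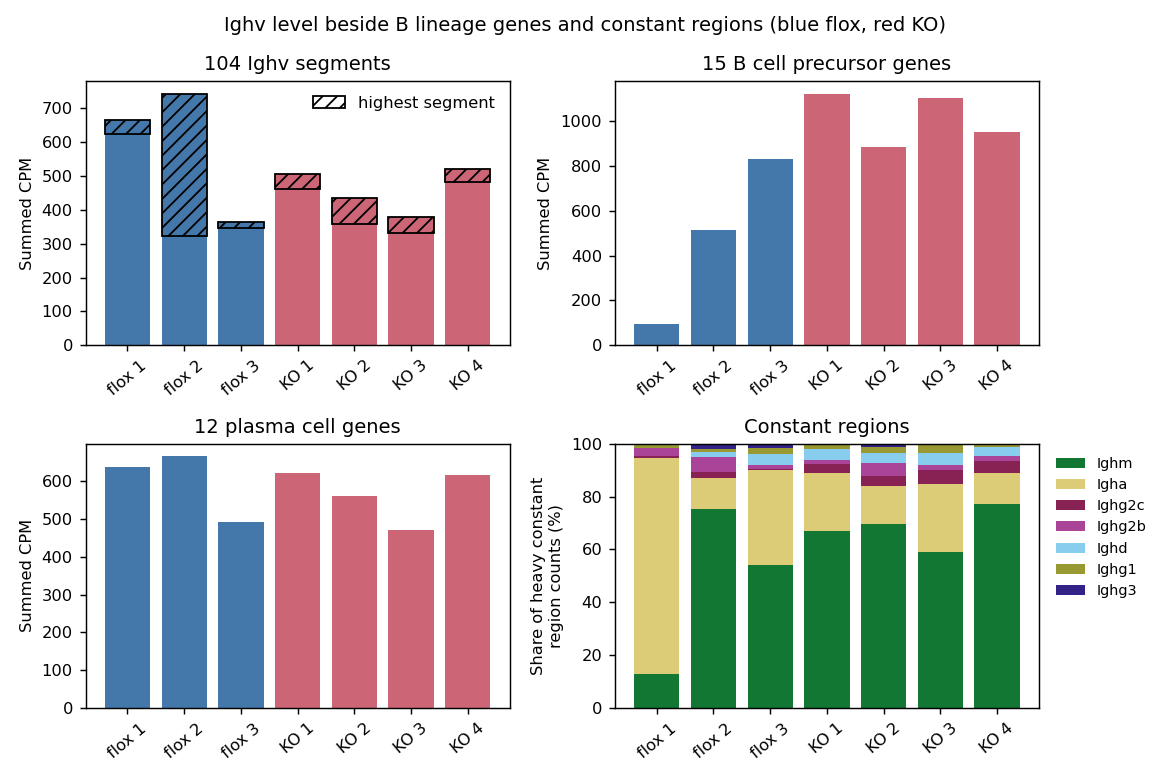
Summed CPM of the 104 Ighv segments with the highest segment of each library hatched (top left), of 15 B cell precursor genes (top right) and of 12 plasma cell genes (bottom left), and shares of heavy constant region counts in percent (bottom right), for each library (x axes), flox in blue and KO in red in the first 3 panels. Flox 1 has 93.6 CPM of precursor genes and 81.9% Igha, while its Ighv sum of 666 CPM is above all KO libraries.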

How the data were processed

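Poly(A) RNA of bone marrow was sequenced in 3 flox and 4 KO libraries. The authors deposited raw counts per Ensembl gene, 1 column per library. Per the submitters' processing notes, the tools were Trimmomatic 0.36 for trimming, STAR 2.5.2b for alignment and featureCounts from Subread 1.5.2 for counting, on GRCm38. Strand setting, annotation release and the handling of multiply matching reads: not given in the sources used here. The library codes in the labels tied each column to its sample, leaving 0 columns unmapped. Gene names, positions and sequences came from GENCODE M21, which matched 49056 of 49315 IDs.

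Counts were filtered with filterByExpr (minimum count 10), scaled by TMM and fitted over all 17920 remaining genes with robust glmQLFit and glmQLFTest of edgeR 4.0.16 (limma 3.58.1, R 4.3.3), two-sided, with Benjamini-Hochberg adjustment over all of them and a threshold of 0.05. CPM were computed here from the deposited counts and the TMM-scaled library sizes. DESeq2 1.42.0, other scalings and filters, a replicate block and leaving out each library were alternatives. Chi-square per degree of freedom between libraries of a group ran between 19.0 and 90.6. No 2 libraries of the same group were alike within sampling noise, and pairs across the groups were not compared in this way. Sums over members, families and gene lists carry no p.

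The members, gene lists and tests were chosen with earlier results of these data known. Segments named in full were the 10 with the highest mean CPM, those with at least 5% of Ighv counts in a library, those past the threshold, the 3 tested with the lowest p in each direction, those nearest the minimum of 10 counts, and the nearest and farthest from the J segments. Others are named as examples chosen after their values were seen. Promoters and recombination signals of the segments were not used here.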

Additional observations from a re-analysis of the deposited data

Results flagged for a closer look

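In 5 of 61 groups of 4 KO values looked at, 1 library lay far outside the other 3, judged by its gap to the nearest of them relative to the whole range. Chance flags about 1 in 20 groups. The Ighv5 family held 18.1% of Ighv counts in KO 3 and 8.02% to 9.01% in the other KO libraries, with Ighv5-4 at 13.0% in KO 3. The Ighv8 family held 9.61% in KO 4 and 3.80% to 4.35% in the others. Ighg2b held 4.85% of heavy constant region counts in KO 2 and 1.59% to 1.81% in the others. The summed level of 11 mature B cell genes was 562 CPM in KO 1 and 438 to 458 CPM in the others. The summed level of 6 erythroid genes was 65186 CPM in KO 3 and 49828 to 50546 CPM in the others. The 3 flox libraries were too few for this rule, so the 56.7% of Ighv5-4 in flox 2 was not judged by it.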

How the results depend on the processing

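The number of genes called over the whole table was 26 with edgeR, 29 with RLE scaling, 38 with library size only, 362 with DESeq2 (230 higher, 132 lower), 112 without a filter and 23 with a minimum count of 30. Leaving out each library in turn gave 2 to 14. Members called were 0 in every edgeR setting run and 2 with DESeq2: Ighv2-5 at 2.22 and Ighv7-1 at -0.80. With the replicate number as a block 4 genes and 0 members were called, and Ighv5-4 moved to 0.0064. Same-numbered libraries showed little shared deviation (correlations -0.02, 0.08 and 0.02). Such values cannot exclude a pairing, and the labels do not state one. The median member fold change was 0.04 (without KO 4) to 0.37 (without flox 1, 72 of 95 higher) on the log2 scale. The number of families not overlapping in share was 2, and 5 without the highest segment of each library, 5 without Ighv5-4 (chosen after seeing the data), 5 without flox 2, 6 without flox 3, and 2 to 6 over all left-out libraries. Among all tested genes the groups did not overlap in CPM for 13.6%, for 21.1% without flox 1 and for 20.7% without flox 2. That share was not computed with another library left out. The Ighv1 share, KO minus flox, was -3.22 percentage points without the highest segments. The summed Ighv level, KO over flox, stayed between -0.61 and -0.16 (log2) with each library left out, and the effective number differed by -3.40 to 20.7. Directions turned for Ighv1-9 (0.0078 with RLE, 0.033 with library size only, 0.011 with DESeq2, 0.0016 without a filter, and -0.97 to 0.44 with a library left out, above 0 without flox 1, flox 2, KO 1, KO 2 or KO 3). With a library left out, others that turned were Ighv5-4 (-3.74 to 2.27, above 0 without flox 2), Ighv6-3 (-1.18 to 0.053, above 0 without flox 1), Ighv1-26 (-0.49 to 0.37, below 0 without flox 2, flox 3 or KO 1), Ighv1-85 (-0.47 to 0.30, above 0 without flox 3, KO 1 or KO 2) and Ighv8-12 (-0.0061 to 1.69, below 0 without KO 4). For the 17 named segments 199 of 220 values kept direction and side of the threshold, and 19 turned. The cause was not tested. Of the 104 members 10 did not reach the minimum count in enough libraries to be tested.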

Other observations

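Ighv pseudogenes, which cannot encode a full V domain, took up 0.884%, 0.939% and 1.35% of all Ighv counts in flox and 0.999%, 1.11%, 1.18% and 0.691% in KO. Of 70 such pseudogenes 14 had at least 10 counts. The groups overlapped. Among the IgG classes, Ighg2c held 0.857%, 2.30% and 0.393% of heavy constant region counts in flox and 3.21%, 3.89%, 5.44% and 4.68% in KO. All KO libraries were above all flox libraries in that share and in CPM, as in CPM for 6.22% of all tested genes. Of the 8 heavy constant region genes only Ighg2c separated the groups by share. In CPM Ighd separated them too, with 5.62, 68.7 and 77.2 in flox and 105, 94.9, 90.6 and 99.2 in KO. The log2 fold change of Ighg2c in CPM was 1.57 (SE 0.75, edgeR adjusted p = 0.420). Ighg3 overlapped, with 0.186%, 1.88% and 1.42% in flox and 0.112%, 1.41%, 0.337% and 0.0371% in KO.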
